A study of Mus musculus with 14 samples.

Results

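The genes described here are the kallikreins (Klk), the Prss genes, the Tmprss genes and the granzymes (Gzm), 4 families of serine proteases, in mouse testis with and without an intact Glis3 gene. They were chosen by name: every gene that the array lists under a symbol of Klk, Prss or Tmprss followed by a digit, or of Gzm followed by a letter, is included. This gave 64 genes measured by 74 probes, out of 27962 genes and 41174 probes on the array. Among them are 13 genes of the Klk1 and Klk1b group, 11 other kallikreins, 18 Prss genes, 12 Tmprss genes and 10 granzymes. Some of these names have since changed: Prss7 is now Tmprss15, the enteropeptidase that activates trypsin in the gut, Tmprss8 is now Prss30, and Prss15 is now Lonp1, the Lon protease of mitochondria, which is no relative of trypsin.

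Most of these proteases share the fold of trypsin and cut proteins next to a preferred amino acid, after being made as inactive precursors. Mice carry a large cluster of Klk1b genes beside Klk1, the tissue kallikrein that releases kinins, and several of them have been described in Leydig cells, the testosterone-making cells between the seminiferous tubules. Several Prss genes are made by spermatids and act on the sperm surface or in the acrosome, whereas most granzymes are carried by killer lymphocytes.

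The samples are total RNA from whole testis of C57BL/6 mice, with 4 WT and 4 Glis3KO2 samples at 1 week of age and 3 WT and 3 Glis3KO2 samples at 4 weeks, each on 1 single-colour Agilent array of 60-base probes. The pups stayed with their mothers and received no treatment, and Glis3KO2 is the label of mice with a disrupted Glis3, which encodes a zinc finger transcription factor of the GLI-related family. The series description gives the older age as 3 weeks where the sample labels say 4, and the sample labels are followed. The labels do not say that samples are separate animals, so p-values measure only the spread between these samples. In whole testis, fewer cells of a type and less RNA per cell cannot be told apart.

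Each value is a log2 signal from which the array's own 75th percentile was subtracted, so that 0 marks a probe at that percentile and a difference of 1 is a doubling. A gene was called changed at an adjusted p under 0.05 from limma, a linear model fitted to all genes with moderated variances and Benjamini-Hochberg adjustment. Glis3 itself lay between -5.05 and -4.71 in the 1-week WT samples and between -9.25 and -7.30 in the 1-week Glis3KO2 samples, and at 4 weeks it was too close to background in both genotypes to be tested. The share of non-control spots flagged as well above background ran from 74.3% to 86.6% over the arrays. It was 82.6% or more on 1-week WT replicates 1 to 3 and 78.6% or less on all other arrays, 1-week WT replicate 4 included. The 1-week arrays lie on slides 1 to 3 and the 4-week arrays on slides 4 and 5, so age and slide cannot be told apart.

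Of the 64 members, 30 were well above background on all 14 arrays and 9 on none. The 9 silent probes are those of Gzmf, Gzmg, Klk1b11, Klk9, Prss28, Tmprss11b, Tmprss11d, Tmprss11e and Tmprss11f. Among the Klk1 and Klk1b genes, 6 of 13 were above background on all 1-week WT arrays and 11 of 13 on all 4-week WT arrays. No member's probe was saturated on any array.

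At 4 weeks the Klk1 and Klk1b kallikreins were far lower in Glis3KO2 testis than in WT. All 11 that passed the filter on dim probes fell, by 2.15 to 4.37 on the log2 scale, with a median difference of -3.43, which is a 10.8-fold lower signal. Across all 64 members, 44 were tested at 4 weeks, 10 were higher and 19 lower, against 69.2% of all 21334 genes tested being called, 35.2% higher and 33.9% lower, with a median difference of 0.03. The members' share of calls, 65.9%, is near that of all genes.

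Klk1b27 had the largest difference of the families. Its 4-week WT values were 0.46, 0.16 and 0.68, and its 4-week Glis3KO2 values were -3.26, -4.57 and -3.98. The difference was -4.37 ± 0.34 (standard error), a 20.6-fold lower signal in Glis3KO2 (limma adjusted p = 0.00049). Klk1b24 was measured at 1.54, 1.16 and 1.75 in WT and at -1.95, -2.23 and -1.69 in Glis3KO2, a difference of -3.44 ± 0.22 (limma adjusted p = 0.00044). For both genes every WT array stood above every Glis3KO2 array.

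Klk1b8 lay at 1.19, 1.81 and 1.54 in 4-week WT and at -1.54, -2.62 and -1.46 in Glis3KO2 (difference -3.39 ± 0.34). Klk1b21, like Klk1b24 and Klk1b27 a kallikrein described in Leydig cells, lay between -1.58 and -1.02 in WT and between -4.54 and -3.81 in Glis3KO2 (difference -2.86 ± 0.24). Klk1b26 and Klk1b9, which bind or process epidermal growth factor, differed by -3.77 ± 0.39 and -3.69 ± 0.37. The subunits of the nerve growth factor complex, Klk1b3 and Klk1b4, differed by -3.43 ± 0.31 and -3.21 ± 0.32. Klk1b5 differed by -3.39 ± 0.30.

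Klk1 showed the smallest difference of the group. Its WT values were -1.10, -1.21 and -0.92, its Glis3KO2 values were -3.17, -3.31 and -3.20, and the difference was -2.15 ± 0.14 (limma adjusted p = 0.00046). Another probe of Klk1 gave -3.12, so the size for this gene depends on the probe. Klk1b16, named after its values were seen, was above background on 2 of 3 Glis3KO2 arrays and on all WT arrays, with a difference of -3.73 ± 0.39. In 10 of these 11 genes Glis3KO2 replicate 2 was the lowest of the Glis3KO2 arrays, as the plot of Klk1 and Klk1b values by array shows. In none of the 11 did the genotypes overlap. With 3 arrays per genotype this was common: it held for 13 of 16 tested Prss genes, of which 10 were called. The share over all genes was not counted, so the lack of overlap is not read as a trait of the group.

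**Figure D1:**
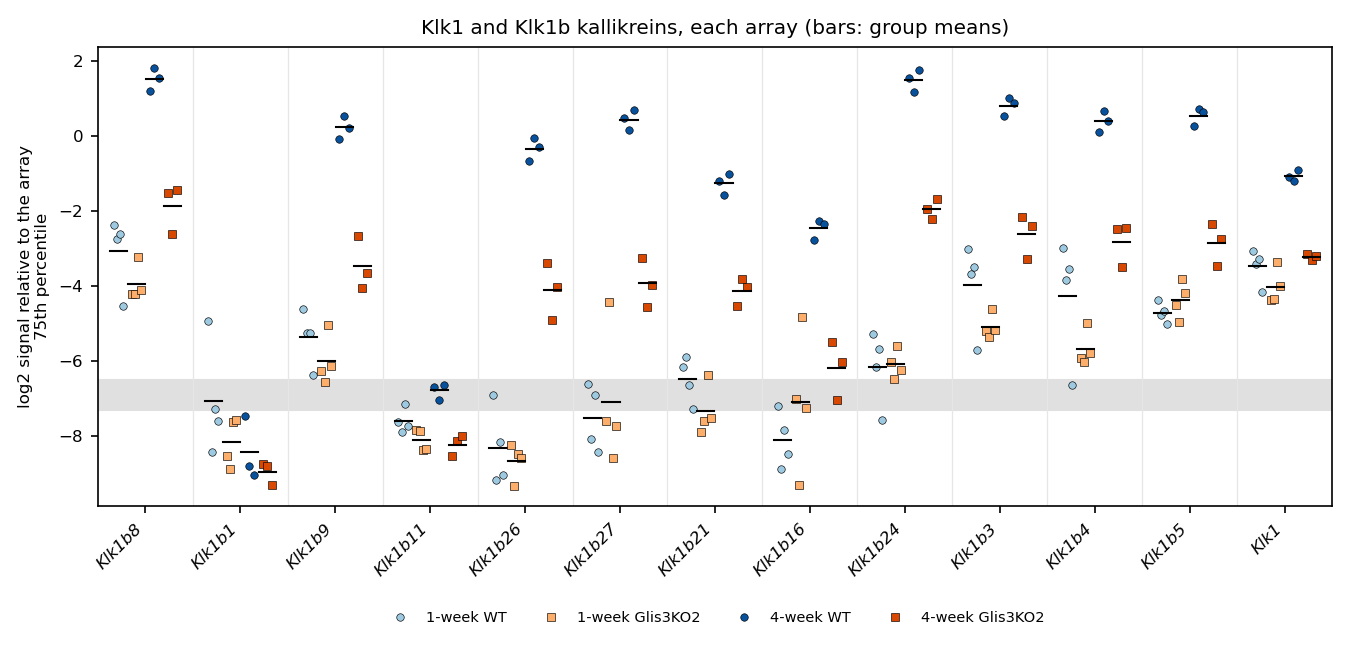
Log2 signal of the 13 Klk1 and Klk1b genes on each of the 14 arrays, in chromosomal order; points are arrays, short bars are group means, and the grey band spans the lowest signals called well above background on the arrays. The dark blue points of 4-week WT stand above all other groups for 11 genes, while Klk1b1 and Klk1b11 stay in or under the band at 4 weeks.

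The probes of this group can be told apart only in part, because the genes are near copies of each other. The pair with the closest probes is Klk1b27 and Klk1b11, which differ at 6 of 60 bases, and Klk1b24 differs from Klk1b27 at 6 of the 53 bases that the probes share. Capitals mark the bases that differ from the Klk1b27 probe. The probes lie on chromosome 7 of the mm7 build at chr7:40230425-40230484, chr7:40173583-40173642 and chr7:40366158-40366217 on the plus strand, as the array files give them.
Klk1b27: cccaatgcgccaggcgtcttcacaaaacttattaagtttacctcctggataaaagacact
Klk1b11: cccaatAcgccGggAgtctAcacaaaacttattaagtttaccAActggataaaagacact
Klk1b24: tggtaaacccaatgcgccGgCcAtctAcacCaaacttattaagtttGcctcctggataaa
The Klk1b11 probe was at background on every array, at -6.70, -7.04 and -6.64 in 4-week WT, while Klk1b27 was above background on all 3 of these arrays. Klk1b24 and Klk1b11 differ at 8 of 53 shared bases and Klk1b5 and Klk1b16 at 8 of 50. For the other 8 probes of the group, no probe of another member came within 25% mismatches. Probes were set against probes only and not against transcripts, so this does not show that these probes are distinct. How far related transcripts add to each probe's signal was not tested.

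Most sequences upstream of the group share a TATA-like box. The genes are near copies of each other, so their promoters are not independent cases. In RefSeq (GRCm38.p6), 11 of the 13 genes of the group (84.6%) hold the letters TTTAAA, which read the same on both strands, within 100 bases before the annotated start, against 4.39% of all 32851 promoters. The same box is in 5 of 11 granzyme promoters, 1 of 21 Prss promoters, 1 of 9 Tmprss promoters and 0 of 13 promoters of the other kallikreins. Promoters could be matched for 56 of the 64 members, and some genes have several. The 100 bases before the start are shown for the same 3 genes as above, at chr7:44188136-44188235, chr7:44052190-44052289 and chr7:43995777-43995876 on the plus strand of GRCm38, with the box in capitals.
Klk1b24: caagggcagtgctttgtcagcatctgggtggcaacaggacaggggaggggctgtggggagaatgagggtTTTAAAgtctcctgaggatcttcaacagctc
Klk1b27: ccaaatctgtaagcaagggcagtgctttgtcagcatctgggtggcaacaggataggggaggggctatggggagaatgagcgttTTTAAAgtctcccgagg
Klk1b11: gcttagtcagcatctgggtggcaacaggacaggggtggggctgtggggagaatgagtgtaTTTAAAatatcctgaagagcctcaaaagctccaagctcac
The box begins at -31 in Klk1b24, -17 in Klk1b27 and -40 in Klk1b11, counted from the annotated start. Its distance from that start thus differs between the 3 genes. Klk1b11, whose probe stayed at background, is among the 11 genes that carry the box. The letters TGGGTGGTC of a GLI-type site, searched on both strands of the 250 bases before the start, are in no promoter of the members and in 0.225% of all promoters. At so low a share, their absence from this few promoters is uninformative. No other letters of a GLI or GLIS site were searched. These matches describe letters in a window only.

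The kallikreins that were lower lie side by side on the chromosome. The 23 kallikreins with a position lie within 531 kb of chromosome 7 (mm7, 39870065 to 40401408), from Klk14 at one end to Klk1 at the other. The Klk1b genes and Klk1 form the last 13 places in that order, and all 11 tested there were lower. Of the 10 genes in the other places, 6 were tested and 33.3% of these were called, against 69.2% of all genes. Klk15, a trypsin-like kallikrein that lies next to the Klk1b block and was named after its values were seen, was lower by a smaller amount (-0.88 ± 0.15, limma adjusted p = 0.0022), and with another background correction it missed the threshold at -0.35. Klk8, which encodes neuropsin, was higher (1.01 ± 0.30, limma adjusted p = 0.021), and the remaining 4 did not pass the test.

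**Figure D2:**
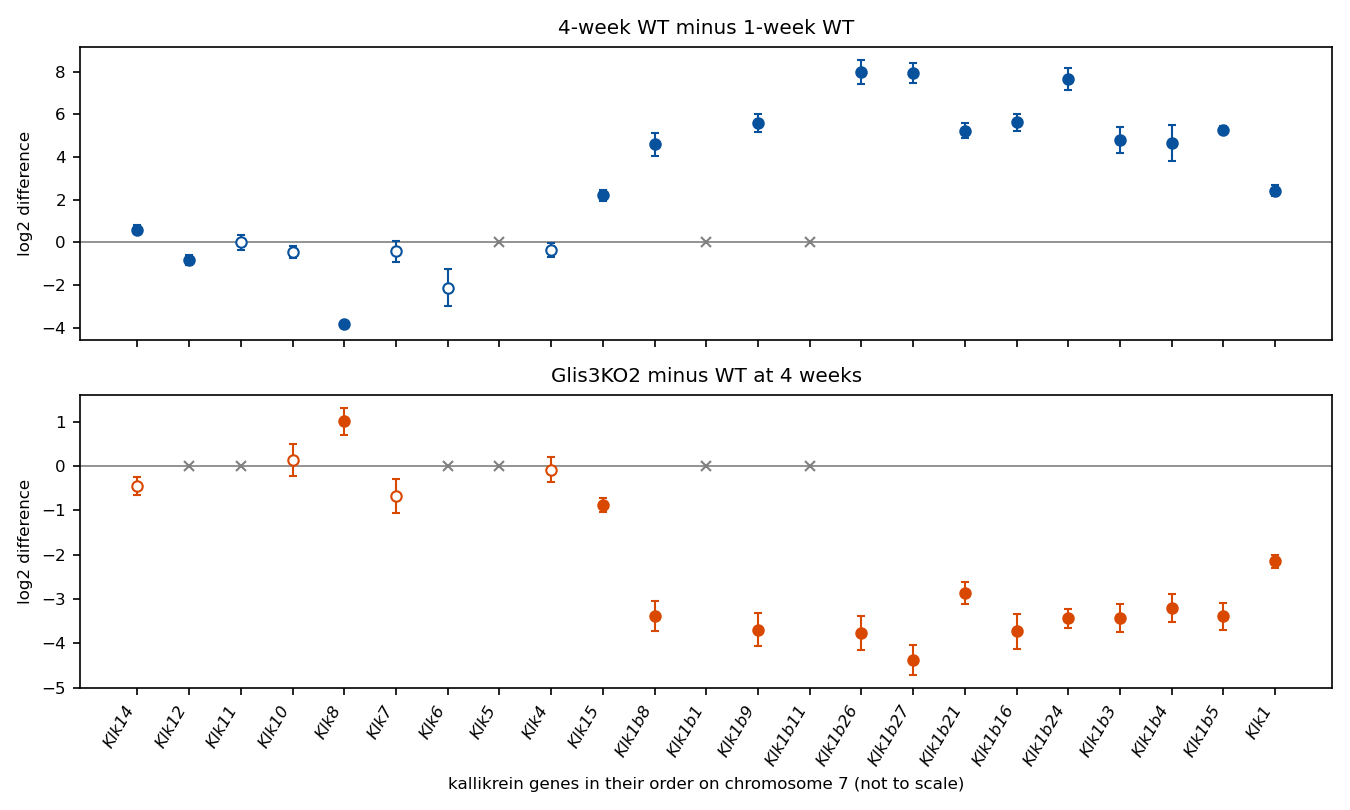
Log2 difference of each kallikrein between 4-week and 1-week WT (upper panel) and between Glis3KO2 and WT at 4 weeks (lower panel), in chromosomal order and not to scale; bars are standard errors, filled points passed the test, open points did not, and crosses at 0 mark genes that were not tested. From Klk15 rightwards all tested genes were higher at 4 weeks than at 1 week in WT and lower in Glis3KO2 than in WT at 4 weeks; the panels share the 4-week WT arrays.

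Klk8 was at -6.07, -5.95 and -5.90 in 4-week WT and at -4.34, -5.00 and -5.55 in 4-week Glis3KO2, so the Glis3KO2 arrays spread widely and one lies close to WT. Its difference was between 0.40 and 1.31 under the processing alternatives and missed the threshold under 4 of 18 of them. These include leaving out WT replicate 1 (limma adjusted p = 0.065), WT replicate 2 (0.055) or Glis3KO2 replicate 2 (0.058). Klk4, which trims the matrix of tooth enamel, was not called (-0.08 ± 0.28), nor were Klk7, Klk10 and Klk14.

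Markers of Leydig cells did not all move as the Klk1b genes did. Of 8 listed markers, 4 were lower at 4 weeks and 1 was higher, with a median difference of -1.25. The share called, 62.5%, is under the 69.2% of all genes. Cyp11a1, which starts steroid synthesis, fell by 3.68 on the log2 scale and Cyp17a1 fell by 2.85. Insl3 differed by -0.75 (limma adjusted p = 0.25), Lhcgr, the receptor for luteinizing hormone, by 0.03, and Star was higher by 1.35. Summed over the 8 markers, the log2 level ranged from 5.06 to 5.41 in 4-week WT and from 3.35 to 5.02 in 4-week Glis3KO2, and none of them was at background in either group. Between the ages, the genotype difference changed towards lower values for 6 of the 8 markers and towards higher values for none, with a median of -1.735. The part of Leydig cells in the difference of the Klk1b genes was not tested.

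Among the Prss genes, 16 of 18 were tested at 4 weeks, and 6 were higher and 4 lower in Glis3KO2. The share called, 62.5%, is under the 69.2% of all genes. The 4 include Prss16, whose sign depended on the background correction. Prss7 was not called (-0.49 ± 0.21). Its other probe gave -2.64 and was above background on all 3 WT arrays and on no Glis3KO2 array. With the mean of its probes, Prss7 was lower (-1.56, limma adjusted p = 0.00068), so its call depends on the probe. The lower ones include Prss21, which encodes testisin, a membrane-anchored protease of spermatids and sperm. Its 60-base probe is shown because the 4-week groups differ clearly in it, and it lies on chromosome 17 of mm7 at chr17:22052768-22052827, plus strand.
Prss21: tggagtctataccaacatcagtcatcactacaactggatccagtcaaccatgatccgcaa
Prss21 was at 3.65, 3.72 and 3.70 in 4-week WT and at 0.68, 0.91 and 2.36 in 4-week Glis3KO2. The difference was -2.38 ± 0.43, a 5.19-fold lower signal (limma adjusted p = 0.0026), and Glis3KO2 replicate 3 lay nearer to WT than the other two.

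The trypsin genes moved the same way. Prss2 was at -3.68, -2.73 and -3.50 in WT and at -5.57, -5.45 and -4.99 in Glis3KO2, a difference of -2.03 ± 0.29 (limma adjusted p = 0.0013). Prss3 differed by -1.27 ± 0.18 and its other probe by -1.02. Prss16, a peptidase of the thymus, was close to background, with a difference of -0.77 ± 0.26, and with another background correction its sign turned (0.04), so no direction is given for it. Of 7 pancreas markers, 6 were tested, 1 was higher and 3 were lower at 4 weeks, and the summed level of the list lay between -1.05 and -0.96 in both genotypes at 4 weeks.

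Of the Prss genes that were higher in Glis3KO2, 3 differed by more than 2 on the log2 scale. Prss12, which encodes neurotrypsin, a secreted protease that cleaves agrin at synapses, was at -0.79, -0.78 and -0.74 in 4-week WT and at 3.32, 3.30 and 2.52 in 4-week Glis3KO2. The difference was 3.81 ± 0.24, a 14.1-fold higher signal and the largest rise among the members (limma adjusted p = 0.00044). Prss36, a secreted protease with several protease domains, was at 0.19, 0.42 and 0.20 in WT and at 2.77, 2.89 and 2.44 in Glis3KO2 (difference 2.43 ± 0.17). Prss15, the mitochondrial Lon protease, was at 2.47, 2.47 and 2.42 in WT and at 4.55, 5.0 and 4.44 in Glis3KO2 (difference 2.21 ± 0.18). None of these 3 genes overlapped between genotypes, as held for 13 of the 16 tested Prss genes. How often this held over all genes was not counted. The 4-week WT arrays of each of the 3 lay close together.

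Smaller rises were found for Prss35, a protease-like protein without the usual catalytic serine (1.39 ± 0.26), for Prss8, which encodes prostasin, an activator of the epithelial sodium channel (1.35 ± 0.39), and for Prss23 (0.85 ± 0.23). Prss8 missed the threshold under 3 of 18 alternatives, among them leaving out WT replicate 2 (1.21, limma adjusted p = 0.061) or Glis3KO2 replicate 2 (1.37, limma adjusted p = 0.054). The other probe of Prss23 went the opposite way, at -0.47, and the mean of both missed the threshold at 0.19, so the direction for Prss23 rests on 1 probe.

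Lists of cell type markers did not all move in the same direction at 4 weeks. All 8 Sertoli markers were higher in Glis3KO2, with a median difference of 2.06, and their summed level rose from between 6.44 and 6.57 in WT to between 8.19 and 8.62 in Glis3KO2. All 6 pachytene spermatocyte, all 6 round spermatid and all 6 elongating spermatid markers were lower, with median differences of -2.02, -2.55 and -3.07. Of 7 macrophage markers, 6 were higher. Of 4 spermatogonia markers, 1 was higher and 1 lower, with a median of -0.09, and none of 3 tested mast cell markers was called. At 1 week, 3 of the 4 spermatogonia markers were lower in Glis3KO2, with a median of -2.36. Of 6 epididymis markers, 3 were tested and 2 were lower, with log2 differences of -4.275 for Crisp1 and -2.01 for Rnase10. Crisp1 was at -0.18, -3.05 and -5.19 on the 4-week WT arrays and at -6.80, -6.28 and -8.17 in 4-week Glis3KO2, and Adam7 was at -4.35 on 4-week WT replicate 1 and at -7.27 or lower on the other 5 arrays of that age. The part of any of these cell types in the protease differences was not tested.

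**Figure D3:**
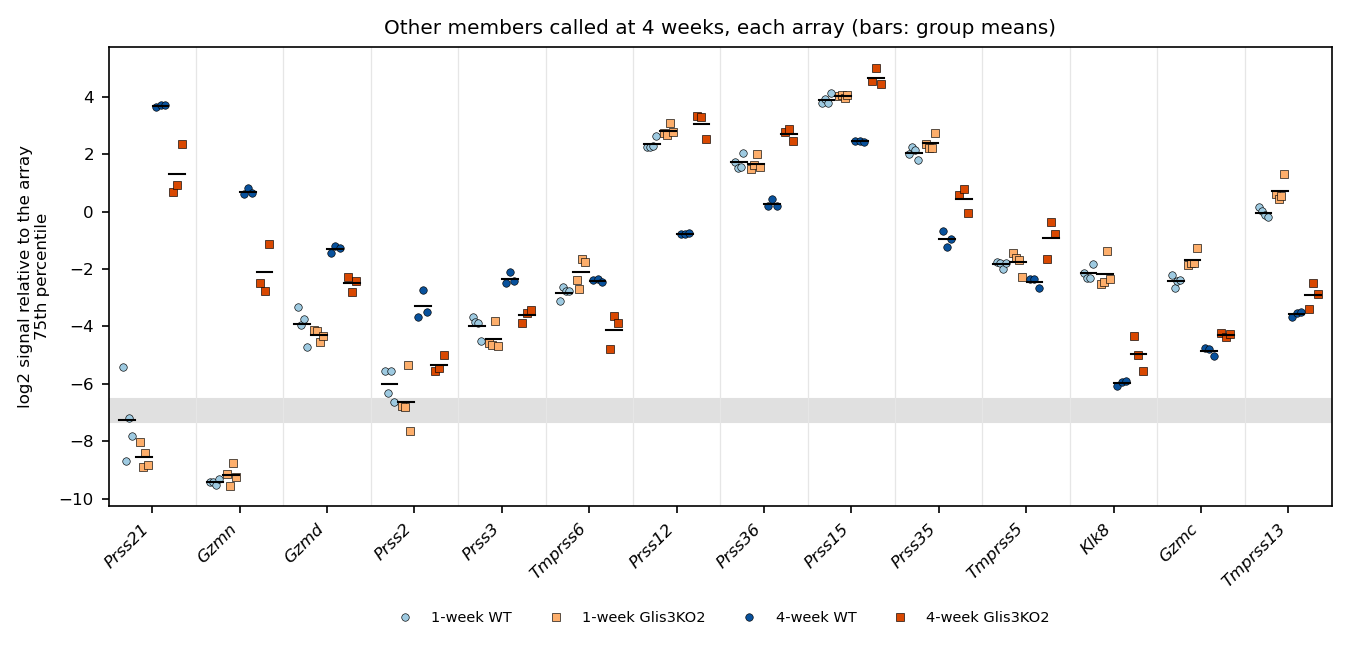
Log2 signal of 14 members outside the Klk1 and Klk1b group that were called at 4 weeks, on each of the 14 arrays; points are arrays, short bars are group means, and the grey band spans the lowest signals called well above background. Prss12, Prss36 and Prss15 are higher in 4-week Glis3KO2 than in 4-week WT, whereas Prss21, Gzmn and Prss2 are lower.

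Of the 12 Tmprss genes, which encode proteases anchored in the cell membrane, 7 were tested at 4 weeks, 2 were higher and 1 lower. The share called, 42.9%, is under the 69.2% of all genes. Tmprss6, the matriptase that restrains hepcidin in the liver, was at -2.40, -2.36 and -2.46 in WT and at -4.80, -3.64 and -3.89 in Glis3KO2. The difference was -1.70 ± 0.30 (limma adjusted p = 0.0025). Tmprss5, known as spinesin from its place in the spinal cord, was at -2.37, -2.36 and -2.66 in WT and at -1.64, -0.38 and -0.77 in Glis3KO2 (difference 1.53 ± 0.32, limma adjusted p = 0.0050). Tmprss13 had a difference of 0.65 ± 0.24 that missed the threshold under 11 of 18 alternatives, with limma adjusted p from 0.086 to 0.13 when WT replicate 1, 2 or 3 or Glis3KO2 replicate 2 or 3 was left out. Tmprss2, which primes viral coat proteins for entry, was not called (-0.04 ± 0.19), and its other probe gave 0.21.

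Among the 4 granzymes tested at 4 weeks, 2 were lower and 1 was higher. The share called, 75%, is near the 69.2% of all genes. Gzmn, a granzyme known from the testis rather than from lymphocytes, is measured by a probe at chr14:51033311-51033370 on the minus strand of mm7, whose sequence is shown because its gene was the most strongly age-dependent granzyme.
Gzmn: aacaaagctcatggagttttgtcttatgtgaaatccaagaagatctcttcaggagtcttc
Gzmn was at 0.63, 0.81 and 0.65 in 4-week WT and at -2.47, -2.76 and -1.12 in 4-week Glis3KO2. The difference was -2.81 ± 0.41, a 7.02-fold lower signal (limma adjusted p = 0.0014). As for Prss21, Glis3KO2 replicate 3 lay nearest to WT.

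Gzmd differed by -1.18 ± 0.18 (limma adjusted p = 0.0016), but its other probe was at background on all 14 arrays. Gzmc was higher in Glis3KO2, at -4.25, -4.37 and -4.28 against -4.76, -4.80 and -5.03 in WT (difference 0.57 ± 0.14, limma adjusted p = 0.011), and missed the threshold under 2 of 18 alternatives, one of them leaving out WT replicate 3 (0.49, limma adjusted p = 0.064). Gzmm was not called (0.04 ± 0.32). Gzma and Gzmb, the granzymes that define killer lymphocytes, were at background on all 4-week WT arrays and were not tested at 4 weeks. Of 12 cytotoxic lymphocyte markers, 9 were tested and 2 were higher in Glis3KO2, and Prf1, the pore-forming perforin, was at background on all 6 arrays of 4-week mice. Gzme stood above background on 1 array at 4 weeks, WT replicate 3, at -4.75, and was at or under -7.99 on the other 5.

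At 1 week the genotypes differed far less in these families. Of 45 members tested, 1 was higher and 1 lower in Glis3KO2, against 10.1% of all 22685 genes being called, 3.95% higher and 6.16% lower. With median scaling, which moves the median difference of all genes in this comparison from -0.07 to 0.19, 4 members were higher and 1 lower. Gzmc was at -2.20, -2.68, -2.42 and -2.39 in WT and at -1.86, -1.79, -1.78 and -1.26 in Glis3KO2, a difference of 0.75 ± 0.17 (limma adjusted p = 0.039). The genotypes did not overlap for Gzmc. Its difference was 0.49 on slide 1, 0.75 on slide 2 and 0.59 with slide as a block, where it missed the threshold (limma adjusted p = 0.11).

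Klk12 was above background on 3 of 4 WT arrays, at -6.94, -6.73, -6.74 and -7.25, and on no Glis3KO2 array, at -8.86, -8.27, -7.90 and -9.15. Against the lowest signals above background its signal was at least 1.03-fold lower in Glis3KO2 (limma adjusted p = 0.019). This bound sets the mean of the group above background against the mean background level of the other group's arrays, and with another background correction the sign of the difference turned (0.06). No direction is therefore given for Klk12.

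None of the 8 Klk1 and Klk1b genes tested at 1 week was called by limma, none had an unadjusted p under 0.05, and in all 8 the arrays of the genotypes overlapped. Their median difference was -0.74, against -0.07 for all genes. Klk1b4 was at -3.00, -3.84, -3.56 and -6.65 in WT and at -5.94, -6.03, -4.99 and -5.79 in Glis3KO2. On WT replicates 1 to 3 it stood above every Glis3KO2 array, and WT replicate 4 stood below them all. Klk1b3 and Klk1b8 had the same arrangement.

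Without WT replicate 4, 9 of 45 members tested were called at 1 week, 2 higher and 7 lower. Over all 22685 genes tested, 3538 were then called, 949 higher and 2589 lower, against 2294 with all arrays. Klk1b3 (-1.69, limma adjusted p = 0.0075), Klk1b4 (-2.22, limma adjusted p = 0.0077) and Klk1b8 (-1.37, limma adjusted p = 0.022) were among the lower members. The other added ones were Prss12, which was higher, and Prss27, Prss29 and Prss32, which were lower. WT replicates 1 to 3 are also the arrays with more spots above background, and the part of that in these differences was not tested. Without WT replicate 1, 2 or 3, or without Glis3KO2 replicate 1, no member was called, so the 1-week count rests on single arrays.

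On 1-week Glis3KO2 replicates 1 and 4, Crisp1, a secreted protein of the epididymis, stood at -0.69 and -0.0042, against -6.99 or lower on the other 6 arrays of that age. It was also above that on the 4-week WT arrays, as given with the 4-week markers. Of the other epididymis markers, Lcn8, Lcn5, Rnase10 and Adam7 were at background on all 1-week Glis3KO2 arrays. Lcn9 stood at -5.67 and -6.28 on replicates 1 and 4, against -6.13 and -5.13 on replicates 2 and 3. With Glis3KO2 replicates 1 and 4 both left out, a step added after the data had been seen, no member was called. Prss8 stood highest on replicate 1 of these, at -2.75 against -4.54, -4.45 and -4.10 on the other Glis3KO2 arrays, and Gzma on replicate 4, at -3.25 against -4.93, -5.33 and -4.09. Other members at 1 week missed the threshold with non-overlapping arrays: Tmprss13 (0.76 ± 0.20, limma adjusted p = 0.0503) and Prss12 (0.46 ± 0.14, limma adjusted p = 0.071). Gzma and Gzmb differed by 1.01 ± 0.44 and 0.60 ± 0.28 and were not called.

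The differences between genotypes at both ages are shown side by side for the 39 members tested at each. Of the 39, 26 lay below 0 at 4 weeks, where the median difference over all genes was 0.03. These 26 include the 8 Klk1 and Klk1b genes tested at both ages. The share of all genes below 0 was not counted, so no lean of the members is read from this count.

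**Figure D4:**
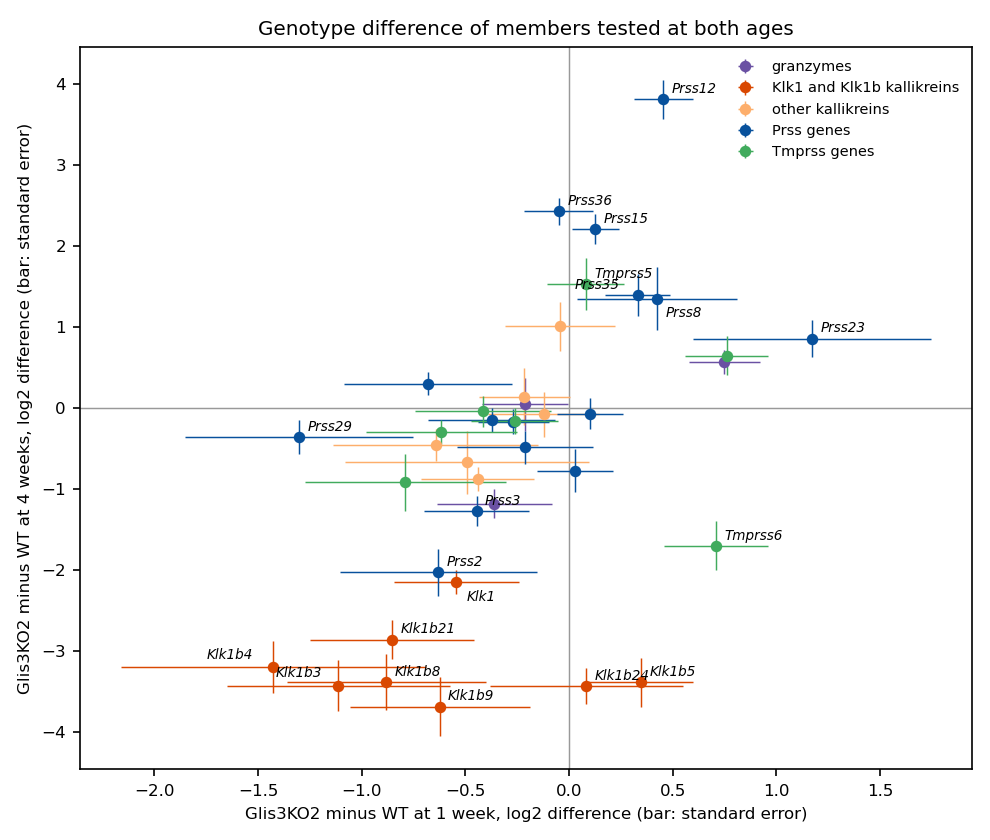
Log2 difference between Glis3KO2 and WT at 1 week (horizontal) and at 4 weeks (vertical) for the 39 members tested at both ages, coloured by family, with standard errors as bars. The 8 Klk1 and Klk1b genes shown lie between -3.69 and -2.15 at 4 weeks and between -1.43 and 0.35 at 1 week, while Prss12 lies at 3.81 and 0.46.

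The genotype difference itself changed with age for 17 of 50 members tested, 5 towards higher and 12 towards lower values in Glis3KO2, against 51% of all 23763 genes, 29.4% higher and 21.6% lower. With quantile normalization the split was 5 higher and 19 lower, and with median scaling 4 higher and 17 lower. The 12 are Gzmn, Tmprss6 and 10 of 11 Klk1 and Klk1b genes, with Klk1b4 the exception and Klk1b3 lost without 4-week Glis3KO2 replicate 2 (-1.98, limma adjusted p = 0.052). Klk1b4 changed by -1.78 ± 0.95 (limma adjusted p = 0.14). Klk1b24, above background on 3 of 4 WT and all Glis3KO2 arrays at 1 week, changed by -3.52 ± 0.60 (limma adjusted p = 0.00052) and Klk1b5 by -3.74 ± 0.42 (limma adjusted p = 5.0e-05).

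For the probes named Klk1b16, Klk1b26 and Gzmn, no 1-week WT array was above background, so the 1-week term of that difference holds no measured WT level. Klk1b16 was above background on 1 of 4 Glis3KO2 arrays at 1 week. It stood at -4.825 on replicate 3, against -7.02 or lower on the other Glis3KO2 arrays. Klk1b21 was above background on 3 of 4 WT arrays and on no Glis3KO2 array at 1 week. Tmprss6 went from 0.71 ± 0.25 at 1 week, not called, to -1.70 at 4 weeks, a change of -2.41 ± 0.41 (limma adjusted p = 0.00050). The 5 higher ones were Prss12 (3.36 ± 0.28), Prss36 (2.48 ± 0.25), Prss15 (2.08 ± 0.20), Tmprss5 (1.45 ± 0.38) and Prss35 (1.06 ± 0.30), of which Prss35 missed the threshold with median scaling (0.72). Prss21 did not pass this test (-1.11 ± 0.87, limma adjusted p = 0.31), and it was above background on only 1 of 4 WT arrays at 1 week.

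Between 1 and 4 weeks in WT testis, 39 of 50 members tested were called, 23 higher and 16 lower, against 80.9% of all 23683 genes, 31.1% higher and 49.8% lower, with a median over all genes of -0.51. This comparison shares the 4-week WT arrays with the genotype comparison at 4 weeks and the 1-week WT arrays with that at 1 week. Prss21 went from -5.42, -8.69, -7.19 and -7.81 at 1 week to 3.65, 3.72 and 3.70 at 4 weeks, a fitted difference of 10.97 ± 0.71. Gzmn was at background on all 1-week WT arrays and at least 242-fold higher at 4 weeks. All 11 tested Klk1 and Klk1b genes were higher, Klk1 by 2.41 ± 0.26. The probes named Klk1b26 and Klk1b16 were at background on all 1-week WT arrays and at least 112-fold and 26.9-fold higher at 4 weeks. A second entry now counted as Klk1b26, under an older name, was above background on all 4 arrays and rose by 5.88 ± 0.46. The bound for Klk1b26 therefore holds for 1 probe only.

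Klk1b27 went from between -8.44 and -6.61 at 1 week to between 0.16 and 0.68 at 4 weeks, and Klk1b24 rose by 7.67 ± 0.53. Gzmd rose by 2.62 ± 0.31, Prss2 by 2.71 ± 0.35 and Tmprss2 by 1.18 ± 0.29. In the other direction, Klk8 fell by 3.83 on the log2 scale, from between -2.31 and -1.82 to between -6.07 and -5.90. Tmprss13 fell by 3.52, Prss12 by 3.12, Prss35 by 3.00 and Gzmc by 2.44. Gzmb and Gzma were at least 4.2-fold and 2.33-fold lower at 4 weeks, when both were at background.

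Set beside these changes, the 4-week Glis3KO2 levels differ from gene to gene. Prss12 stood at 3.04 ± 0.46 (SD, n = 3) in 4-week Glis3KO2, at 2.35 ± 0.19 (SD, n = 4) in 1-week WT and at -0.77 ± 0.03 (SD, n = 3) in 4-week WT. Prss36 stood at 2.70 ± 0.23 in 4-week Glis3KO2, above both 1-week WT (1.71 ± 0.24) and 4-week WT (0.27 ± 0.13). Klk8 at -4.96 ± 0.61 in 4-week Glis3KO2 was well under its 1-week WT level of -2.14 ± 0.23. Klk1b24 at -1.96 ± 0.27 lay between its 1-week WT level of -6.18 ± 1.00 and its 4-week WT level of 1.48 ± 0.30.

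Many proteases of these families stand on the array under older or clone names and fall outside the naming rule. RefSeq's accessions and synonyms place 22 such entries in the Klk, Prss or Tmprss families, a set put together after results were known. At 4 weeks 20 were tested, and 19 were lower in Glis3KO2 by limma with none above 0, by 0.82 to 3.83 on the log2 scale, against 69.2% of all genes called and 33.9% lower. They include proteases of spermatids and sperm: Prss37 went from 4.38, 4.99 and 4.85 in WT to 1.70, 0.33 and 1.56 in Glis3KO2 (difference -3.55 ± 0.39). Prss39 differed by -2.21 ± 0.39, Prss52 by -3.83 ± 0.41 and Prss55 by -3.31 ± 0.41. The exception was Prss50, at -0.33 ± 0.18 (limma adjusted p = 0.14). In WT, 20 of the 21 entries tested between ages were higher at 4 weeks, against 31.1% of all genes. All genes are therefore not a like background for this set.

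The entry that is now counted as Klk1b26 under the older name Egfbp2 gave -3.74 ± 0.29, next to -3.77 for the Klk1b26 probe itself. Unlike that probe, the Egfbp2 entry was above background on all 1-week arrays, with a 1-week difference of -1.01 ± 0.43 that was not called. The change of the Egfbp2 difference between ages was -2.73 ± 0.59 (limma adjusted p = 0.0022). Klk1b7-ps, a pseudogene in the same cluster, gave -3.52 ± 0.41. At 1 week, 15 of the 22 were tested and 3 were called, against 10.1% of all genes. Prss44 was lower in Glis3KO2 (-1.77 ± 0.34, limma adjusted p = 0.026), with 1 of 4 Glis3KO2 arrays above background. Prss57 was above background on all 4 WT arrays and on no Glis3KO2 array (limma adjusted p = 0.046). Prss55 was higher in Glis3KO2, at -1.96, -1.32, -0.87 and -3.29 against -3.79, -5.90, -5.00 and -4.39 in WT (difference 2.91 ± 0.60, limma adjusted p = 0.032), and so stood above WT at 1 week and below it at 4 weeks. The change of its difference was -6.21 ± 0.84 (limma adjusted p = 0.00013).

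**Figure D5:**
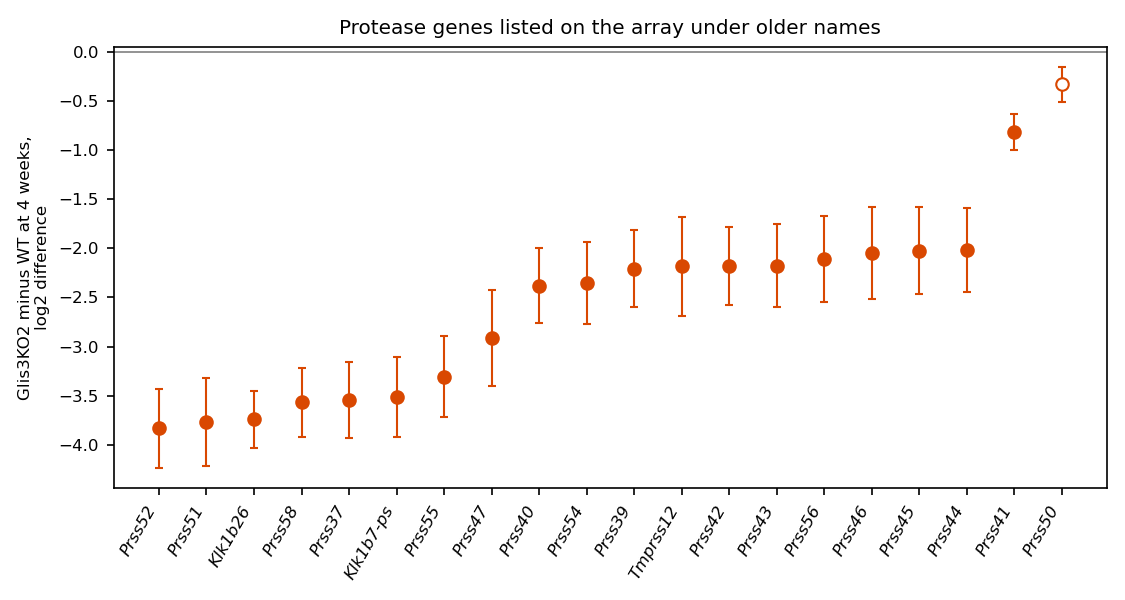
Log2 difference between Glis3KO2 and WT at 4 weeks for the 20 tested entries that RefSeq places in these families and the array lists under older names, sorted by size; bars are standard errors, and the open point did not pass the test. All but Prss50 passed the test and lie between -3.83 and -0.82.

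The partners of these proteases changed in both directions at 4 weeks. Of 28 tested inhibitors of serine proteases, 15 were higher and 4 lower in Glis3KO2, with a median difference of 0.78. The share called, 67.9%, is near the 69.2% of all genes. Serpina3n (4.90 ± 0.43), the protease nexin Serpine2 (2.60 ± 0.25), the complement inhibitor Serping1 (2.11 ± 0.20) and the protein C inhibitor Serpina5 (1.77 ± 0.19) had the smallest p among them. Serpina5 was also higher at 1 week (1.02 ± 0.12, limma adjusted p = 0.0060), where 4 of 27 inhibitors were higher and 1 lower, against 10.1% of all genes called.

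Among 13 tested receptors and substrates, 5 were higher and 2 lower at 4 weeks, with a median of 0.33 and 53.9% called. Igfbp3, a growth factor carrier that proteases of this kind can cut, had a difference of 5.01 ± 0.33, the thrombin receptor F2r one of 2.63 ± 0.27 and the sodium channel subunit Scnn1b one of 1.76 ± 0.28. The acrosin-binding protein Acrbp was lower (-2.13 ± 0.37). At 1 week 1 of 15 was higher and 1 lower.

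Of 38 other proteases of the trypsin fold, 8 were higher and 11 lower at 4 weeks, with a median of -0.06 and 50% called. The complement proteases Masp1 (4.09 ± 0.28) and C1r (2.87 ± 0.24) and the plasminogen activator Plat (2.40 ± 0.26) were higher, and coagulation factor F10 was lower (-2.49 ± 0.25). The acrosomal protease Acr, picked out after its values were seen, was lower by 2.20 on the log2 scale, with Glis3KO2 replicate 3 nearest to WT, as for Prss21 and Gzmn. At 1 week 2 of 41 were higher and 2 lower, with Masp1 at 0.77 ± 0.13 (limma adjusted p = 0.020).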

How the data were processed

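The authors' deposited scanner files hold intensity values per spot (Agilent Feature Extraction 9.5, per the submitters' processing notes): a mean, a local background and a processed intensity, background-subtracted and detrended within the array, with nothing done between arrays. The deposited series table repeats that processed intensity at each of the 45018 spots. The deposited spot flags (well above background, saturated, non-uniform) are scores of 0 or 1.

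Processed intensities were put on the log2 scale, non-uniform spots left out, spots of a probe averaged, and the 75th percentile of each array's non-control probes subtracted. Probes flagged above background on 3 or more arrays of any one group were tested, with each gene represented by its brightest probe. limma 3.58.1 (R 4.3.3) was fitted to all genes, per age, for WT between ages, and to all 14 arrays for the change of the genotype difference. The procedure was tested on simulated data. Members, lists and motifs were chosen with earlier results of these data known. Called members were named by smallest p, up to 10 per family in each genotype comparison and 4 otherwise. Members known in testis and up to 4 genes per list were also named. Klk1b16, Klk4, Klk7, Klk10, Klk14, Klk15, Prss7, Prss27, Prss29, Prss32 and Acr were added after their values were seen. Same-numbered samples did not deviate together (correlations -0.31 to 0.16), and samples were not paired by number in the reported fits. Such correlations cannot exclude a pairing, and a replicate block was run as an alternative. Files give positions in mm7, and no genome was used. Alternatives were other scalings, background corrections, filters, probe rules, blocks, slides and arrays left out. Tables and figures used Python 3.11.15 with pandas 2.3.3 and matplotlib 3.10.9.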

Additional observations from a re-analysis of the deposited data

Results flagged for a closer look

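For 17 members the difference between Glis3KO2 and WT differed between the ages by a test of that change in limma. The change, 4 weeks less 1 week on the log2 scale, was -4.79 for Klk1b27, -4.73 for Klk1b16, -3.74 for Klk1b5, -3.52 for Klk1b24, -3.43 for Klk1b26, -3.07 for Klk1b9, -2.50 for Klk1b8, -2.32 for Klk1b3, -2.01 for Klk1b21 and -1.61 for Klk1. It was -3.06 for Gzmn and -2.41 for Tmprss6. Changes towards higher values in Glis3KO2 were 3.36 for Prss12, 2.48 for Prss36, 2.08 for Prss15, 1.45 for Tmprss5 and 1.06 for Prss35. Klk1b27 at 1 week was above background on 2 of 4 WT arrays and carries a Glis3KO2 replicate 2 value of -4.43 against -7.61 or lower on the other Glis3KO2 arrays.

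A single array stood far from the other 3 of its group in 7 of 73 cases examined, over members above background on all arrays of a 1-week group; chance alone would mark about 1 in 20. Among 1-week WT arrays, Prss23 was at -2.36 on replicate 1 against -0.09 to 0.31 on the others, Klk10 was at -4.43 on replicate 4 against -3.93 to -3.87, and Prss12 was at 2.64 on replicate 4 against 2.25 to 2.27. Among 1-week Glis3KO2 arrays, replicate 3 was apart for Klk1b8 (-3.25 against -4.23 to -4.13), Klk7 (-2.90 against -4.95 to -4.76) and Prss3 (-3.81 against -4.69 to -4.57). Gzmc was at -1.26 on Glis3KO2 replicate 4, the array alone on its slide, against -1.86 to -1.78 on the others. Without that array the 1-week call of Gzmc was lost.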

How the results depend on the processing

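The 4-week count of 29 called members ranged from 25 to 30 when single arrays were left out and stayed within 1.5 times under the other alternatives run; 22 of the 29 were called under all of them, the 11 Klk1 and Klk1b genes included. On slide 4 alone and slide 5 alone (1 array per genotype, no test) all 29 kept their direction. Prss16 turned under normexp background correction (0.045). The WT age count of 39 ranged from 36 to 43 and the count of 17 changed genotype differences from 17 to 21 with single arrays left out, with 32 and 15 members called under all alternatives run.

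The 1-week count of 2 was not stable. It was 5 with median scaling, 4 with an intensity trend and robust moderation, 1 with the replicate block, and 0 with slide as a block, on slide 1 alone, on slide 2 alone and without Glis3KO2 replicates 1 and 4 together, with a range of 0 to 9 over single arrays left out. Klk12 turned under normexp (0.0557). Over all genes the 1-week count was 2294, against 3936 with median scaling (2919 higher, against 897), 961 with no filter, 504 with slide as a block, 397 with the replicate block, 3876 with trend and robust moderation, 3874 in 1 fit of all arrays, and 281 to 3538 with single arrays left out. The replicate block changed no member's call at 4 weeks. Over all genes the change of the genotype difference was higher for 6995 of 12118 genes and, with median scaling, for 4764 of 11277.

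Members near background are the limit: a dim level is only a bound, and normexp shrinks such differences. Few arrays per group limit the precision.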
